A study of Mus musculus with 9 samples.

Results

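Alox5, Alox5ap, Alox12, Alox15, Lta4h, Ltc4s, Cysltr1 and Cysltr2 encode lipoxygenases, their activating protein, the terminal leukotriene enzymes and the cysteinyl leukotriene receptors, and they were chosen by symbol as 8 of the 22064 genes listed in the deposited tables. All 8 had values, and all 8 passed the filter on low counts that left 14108 genes for testing. Their expression was described in neutrophils sorted from the lungs of mice with breast cancer metastasis and from normal lung.

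Bulk RNA-seq covered 9 libraries, 3 in each of 3 groups, from female BALB/c mice bought at 6 to 8 weeks of age. Ly6Ghi and Ly6Glow were CD45+ neutrophils with high or low surface Ly6g, sorted by flow cytometry after collagenase digestion of lungs at the macrometastatic stage, which the study placed at week 4 or later after injection of 4T1-LM3 cells into the mammary fat pad. The parent of 4T1-LM3 is 4T1, a mammary carcinoma line of the mouse, from which lung-seeking cells were selected in 3 rounds in vivo. NL were Ly6g-high neutrophils from normal lung, so that NL differs from Ly6Glow in both tissue state and Ly6g gate. The description field of the NL libraries names the Ly6g-high group alone, and their place in NL rests on the titles and treatment fields. Each library is labelled as a separate biosample, but whether it came from 1 mouse or from pooled mice is not stated, so the p-values measure the spread between these libraries.

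Estimated counts summed to 15267177 to 17841807 per library. Levels are given as CPM, counts scaled to a common library size after TMM, and levels of different genes are compared as FPKM, which is scaled for transcript length. A gene was called where the edgeR quasi-likelihood test gave a Benjamini-Hochberg adjusted p of at most 0.05 over all tested genes and the absolute log2 fold change was above 0.58. On log2(FPKM + 1) compared with limma, the median log2 fold change of all tested genes moved from -0.09 to -0.32 in Ly6Ghi over NL, from -0.16 to -0.49 in Ly6Glow over NL and from -0.04 to -0.13 in Ly6Glow over Ly6Ghi. With DESeq2 size factors in place of TMM the medians were -0.06, -0.07 and 0.02 in the same order. The FPKM setting changes unit, library scaling, length correction and model together, and which of them moved the medians was not tested. FPKM are scaled by the library total and leave out the TMM factors. These were 0.945 to 0.950 in Ly6Ghi, 0.803 to 0.807 in Ly6Glow and 1.30 to 1.32 in NL. Members whose direction turned are named beside their values.

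Leukotrienes are lipid mediators that leukocytes make from arachidonic acid released from membrane phospholipids. The 5-lipoxygenase encoded by Alox5, helped by the membrane protein FLAP (Alox5ap), turns arachidonic acid into the unstable epoxide leukotriene A4. Leukotriene A4 hydrolase (Lta4h) converts this to leukotriene B4, a strong neutrophil attractant, while leukotriene C4 synthase (Ltc4s) joins it to glutathione to give the cysteinyl leukotrienes. The cysteinyl leukotrienes act through the receptors encoded by Cysltr1 and Cysltr2 on airway smooth muscle, endothelium and leukocytes. Neutrophils are classically known as makers of leukotriene B4, and mast cells, basophils, eosinophils and macrophages as makers of leukotriene C4. Alox12 encodes the platelet-type 12-lipoxygenase and Alox15 the leukocyte-type enzyme of the mouse, which oxygenates arachidonic acid and related fatty acids at other positions and is known from macrophages and eosinophils.

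The label of the sorted cells was checked against marker genes. The 12 neutrophil markers summed to 23115 ± 97.1 CPM in NL, 101387 ± 1157 CPM in Ly6Ghi and 86492 ± 901 CPM in Ly6Glow (SD, n = 3 each), with S100a9 as the most abundant gene. All 12 were called higher in Ly6Ghi than in NL, with a median log2 fold change of 1.80 and a range from 0.81 (Csf3r) to 2.72 (Ltf). In Ly6Glow over NL 11 of 12 were called higher, again with a median of 1.80, and Camp had a log2 fold change of -0.24. Between the macrometastatic groups 4 neutrophil markers were higher in Ly6Glow (Csf3r, Cxcr2, Mmp8 and Retnlg) and 3 were lower (Camp, Ltf and Ngp, which encode granule proteins). For Cxcr2 the study reports the other direction, with more in Ly6g-high cells by scRNA-seq and flow cytometry. Ly6g itself was at 374 ± 10.8 CPM in Ly6Ghi, 394 ± 9.32 CPM in Ly6Glow and 119 ± 1.40 CPM in NL (SD, n = 3 each), so its mRNA did not follow the gate.

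Markers of other cell types were highest in NL for most lists, although a gate on CD45 and Ly6g should remove many of these cells. Epithelial markers (most abundant gene Sftpc) summed to 1186 ± 71.4 CPM in NL, 108 ± 3.37 CPM in Ly6Ghi and 109.96 ± 3.40 CPM in Ly6Glow (SD, n = 3 each). Endothelial markers (Pecam1) summed to 1007 ± 39.4, 144 ± 2.29 and 179 ± 3.85 CPM in the same order, and fibroblast markers (Col3a1) to 537 ± 16.5, 53.4 ± 3.83 and 55.1 ± 3.09 CPM. Alveolar macrophage markers (Chil3) summed to 2092 ± 18.3 CPM in NL, 1530 ± 26.3 CPM in Ly6Ghi and 331 ± 11.4 CPM in Ly6Glow. Chil3 alone, at 964 ± 15.6, 1274 ± 23.5 and 277 ± 10.3 CPM in the same order, made up most of the sum in Ly6Ghi and was the one marker of this list not called lower in Ly6Ghi than in NL, so the sum understates the step of the other 11. Monocyte and macrophage markers (Csf1r) summed to 1179 ± 56.1, 723 ± 3.87 and 764 ± 13.0 CPM, dendritic cell markers (Ccr7) to 50.5 ± 2.81, 15.5 ± 1.09 and 15.8 ± 0.758 CPM, and markers of T, B and NK cells (Cd3d) to 82.7 ± 0.809, 82.6 ± 0.354 and 53.3 ± 0.986 CPM. The last list moved both ways in Ly6Ghi over NL. Of its 10 tested genes 3 were called higher (Cd79a, Cd79b and Ms4a1) and 4 lower (Cd3e, Cd4, Cd8a and Klrb1c), where Klrb1c passed the filter only with NL. No marker of any list was at 0 in all libraries. How far these cells set the values of the 8 genes was not tested, and in bulk samples fewer cells of a type cannot be told apart from less RNA per cell.

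**Figure D1:**
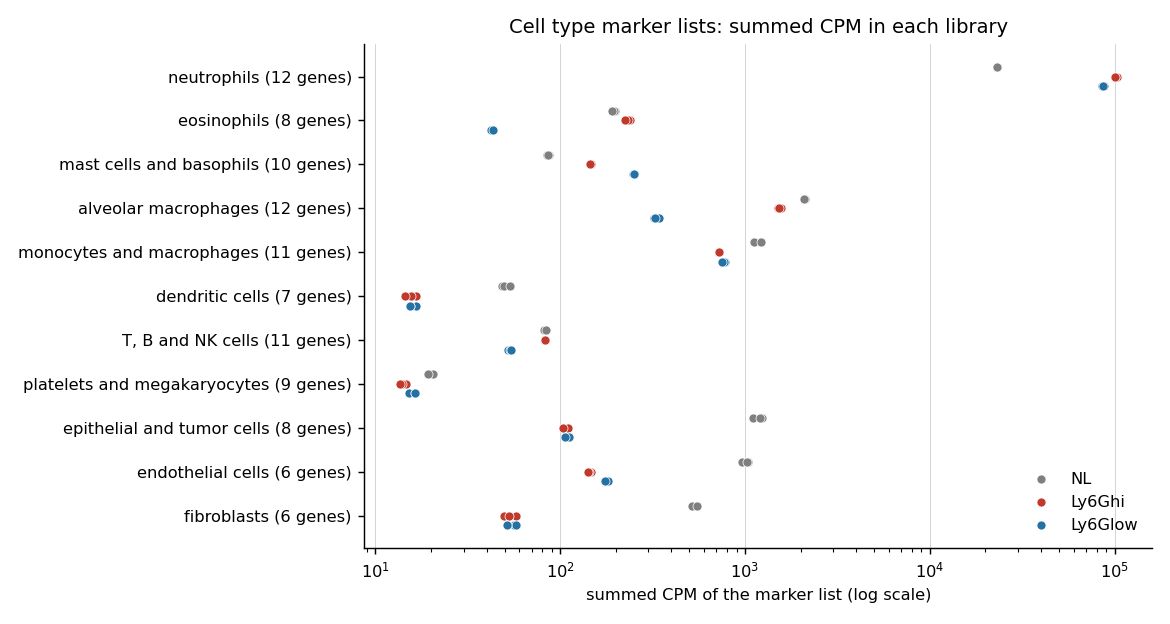
Summed CPM of each fixed marker list (log axis) in the 9 libraries, with 1 point per library coloured by group. Neutrophil markers were lowest in NL, epithelial, endothelial and fibroblast markers were highest there, and alveolar macrophage and eosinophil markers were lowest in Ly6Glow.

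NL replicate 2 stood apart within its group. Its counts differed from those of NL replicates 1 and 3 by a chi-square per degree of freedom of 5.30 and 4.05, against 1.49 between replicates 1 and 3 and 1.41 to 2.50 within the other groups. Without this library the log2 fold changes of all 8 members over NL kept their direction, and the call of Cysltr2 in Ly6Glow over NL was lost.

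Against the NL libraries, and on the TMM scale, the macrometastatic libraries had more mRNA of the leukotriene A4 and B4 enzymes and less of leukotriene C4 synthase. Turns of direction on other scales are given for each comparison, and the part of other cell types in these differences was not tested. In Ly6Ghi over NL 7 of 8 members were called, 4 higher (Alox5, Alox5ap, Alox15 and Lta4h) and 3 lower (Alox12, Ltc4s and Cysltr2), where 62.9% of all tested genes were called, 26.3% higher and 36.6% lower. Relative to the median change of the 12 neutrophil markers, a scale chosen after the data were seen, Alox5 and Alox15 of these turned direction. In Ly6Glow over NL 7 of 8 were called, 3 higher (Alox5, Alox5ap and Lta4h) and 4 lower (Alox12, Alox15, Ltc4s and Cysltr2), where 69.5% of tested genes were called, 28.7% higher and 40.8% lower. Here Lta4h turned direction on FPKM, and Lta4h and Alox5 did so relative to the neutrophil markers. Between the macrometastatic groups, Ly6Glow over Ly6Ghi, 4 of 8 were called, 1 higher (Alox12) and 3 lower (Alox15, Lta4h and Ltc4s), where 25.2% of tested genes were called, 9.29% higher and 15.9% lower. In both NL comparisons most tested genes were called, so these counts set nothing apart about the members, and Alox12 was among those called lower after passing the filter only with NL.

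The median log2 fold change of the members was 1.04 in Ly6Ghi over NL, -0.31 in Ly6Glow over NL and -0.32 in Ly6Glow over Ly6Ghi, beside -0.09, -0.16 and -0.04 for all tested genes. These medians describe lists of mixed direction. Both NL comparisons share the same 3 NL libraries, so their values are given side by side and are not independent.

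**Figure D2:**
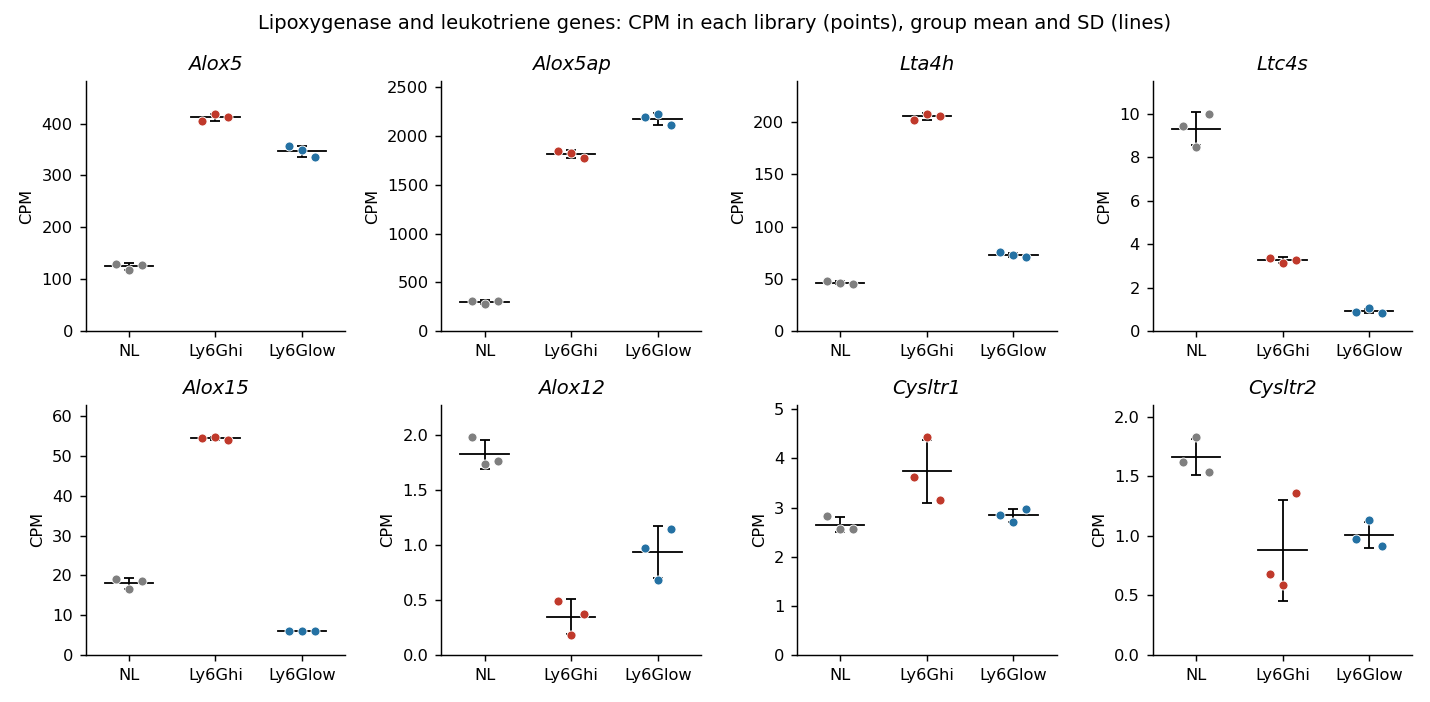
CPM of the 8 genes in each library (points), with the group mean as a horizontal line and the SD as a bar (n = 3), on linear axes that start at 0. Alox5, Alox5ap and Lta4h were lowest in NL (on FPKM, Lta4h in Ly6Glow and NL overlapped and the direction turned), Ltc4s, Alox12 and Cysltr2 were highest there, and Alox15 was highest in Ly6Ghi, from 54.0 to 54.7 CPM.

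Promoter sequences are shown for Alox5, Lta4h and Ltc4s, because Alox5 and Lta4h rose and Ltc4s fell in Ly6Ghi over NL. The RefSeq promoter table for GRCm38.p6 held 5 of the 8 members (Alox5, Lta4h, Ltc4s, Alox12 and Cysltr2), each as 300 bases from 250 before to 50 after the start. Both strands were searched for the GC box GGGCGG, the ETS core GGAAGT, the TATA box TATAAA and the C/EBP half-palindrome TTGCNNAA, and the capitals mark matches. The windows are chr6:116461129-116461428 (minus strand) for Alox5, chr10:93453146-93453445 (plus strand) for Lta4h and chr11:50238483-50238782 (minus strand) for Ltc4s.
Alox5: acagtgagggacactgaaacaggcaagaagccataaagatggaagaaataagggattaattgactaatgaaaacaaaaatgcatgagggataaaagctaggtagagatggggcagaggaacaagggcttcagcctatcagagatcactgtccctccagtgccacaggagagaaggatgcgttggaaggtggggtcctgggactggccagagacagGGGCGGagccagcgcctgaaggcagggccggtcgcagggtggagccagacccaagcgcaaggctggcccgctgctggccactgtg
Lta4h: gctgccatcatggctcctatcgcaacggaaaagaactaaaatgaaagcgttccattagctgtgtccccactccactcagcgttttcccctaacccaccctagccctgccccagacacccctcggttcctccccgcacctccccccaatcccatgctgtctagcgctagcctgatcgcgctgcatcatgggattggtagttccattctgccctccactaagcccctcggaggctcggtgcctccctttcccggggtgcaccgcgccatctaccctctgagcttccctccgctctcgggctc
Ltc4s: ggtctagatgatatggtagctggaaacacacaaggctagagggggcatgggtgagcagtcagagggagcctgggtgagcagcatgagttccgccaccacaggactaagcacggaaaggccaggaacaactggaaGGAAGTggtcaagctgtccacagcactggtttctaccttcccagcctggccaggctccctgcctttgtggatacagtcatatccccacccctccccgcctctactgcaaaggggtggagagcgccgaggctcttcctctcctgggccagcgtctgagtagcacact

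The Alox5 window held 1 GC box, which starts 35 bases before the gene's start, and none of the other motifs. The Ltc4s window held 1 ETS core and none of the others. The Lta4h window held none of the 4. Of the members not printed, Alox12 had 3 GC boxes and Cysltr2 had no match, and no matches overlapped. Among all 32851 promoters of the table, 35.7% held a GC box, 23.8% an ETS core, 13.6% a TATA box and 10.8% the C/EBP half-palindrome. A match shows only that these letters are present.

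Alox5 (NCBI Gene 11689) lies at chr6:116410071-116461178 on the minus strand in GRCm38.p6, the assembly that mm10 names. It had 405, 419 and 413 CPM in the Ly6Ghi libraries. The Ly6Glow libraries had 356, 349 and 335 CPM, and the NL libraries 129, 117 and 127 CPM. The 3 groups did not overlap in Alox5, and every NL library was far below the rest. Mean levels were 412 ± 7.21 CPM in Ly6Ghi, 346 ± 10.6 CPM in Ly6Glow and 125 ± 6.42 CPM in NL (SD, n = 3 each). Alox5 rose 3.30-fold in Ly6Ghi over NL (log2 fold change 1.72, edgeR adjusted p = 2.56e-20, SE 0.0389). It rose 2.78-fold in Ly6Glow over NL (log2 fold change 1.47, edgeR adjusted p = 3.49e-19, SE 0.0393), with a log2 fold change of 0.76 on log2(FPKM + 1). Between Ly6Glow and Ly6Ghi the log2 fold change of Alox5 was -0.25 (edgeR adjusted p = 6.08e-06, SE 0.0374), beyond the replicate spread but within the fold-change threshold.

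The increase of Alox5 over NL was of about the size of that of the neutrophil markers. Less the median log2 fold change of these 12 markers, Alox5 stood at -0.07 in Ly6Ghi over NL and at -0.32 in Ly6Glow over NL. The 5-lipoxygenase mRNA thus kept pace with the neutrophil markers in Ly6Ghi, and which of the scales fits single cells was not tested.

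Alox5ap (NCBI Gene 11690), at chr5:149265004-149288153, was the most abundant member by FPKM in every library. It had 1844, 1826 and 1769 CPM in Ly6Ghi and 2192, 2227 and 2109.7 CPM in Ly6Glow. In NL it had 312, 276 and 307 CPM. All Alox5ap values of Ly6Glow lay above those of Ly6Ghi, and all of these above NL. Group means were 1813 ± 39.3, 2176 ± 60.4 and 298 ± 19.8 CPM (SD, n = 3) in Ly6Ghi, Ly6Glow and NL. The rise of Alox5ap in Ly6Ghi over NL was 6.08-fold (log2 fold change 2.60, edgeR adjusted p = 7.04e-23, SE 0.0402). In Ly6Glow over NL it was 7.29-fold (log2 fold change 2.87, edgeR adjusted p = 1.18e-23, SE 0.0406), with 2.16 on log2(FPKM + 1). Between Ly6Glow and Ly6Ghi Alox5ap had a log2 fold change of 0.26 (edgeR adjusted p = 3.18e-06, SE 0.0374), which did not reach the fold-change threshold, and on log2(FPKM + 1) it had 0.03 (limma adjusted p = 0.695, with 3.03e-14 to 0.707 over all alternatives).

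Unlike Alox5, Alox5ap rose more than the middle of the neutrophil markers. Less their median, its log2 fold change was 0.81 in Ly6Ghi over NL and 1.07 in Ly6Glow over NL. By FPKM, Alox5ap ranked from 26 to 29 among the 18325 genes with values in the macrometastatic libraries and from 121 to 139 in NL.

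FLAP mRNA was in excess over 5-lipoxygenase mRNA in all groups. The ratio of Alox5ap FPKM to Alox5 FPKM was 13.1, 12.6 and 12.4 in the Ly6Ghi libraries, 17.7, 18.4 and 18.1 in Ly6Glow and 6.96, 6.77 and 6.95 in NL. This ratio did not overlap between groups, with means of 12.7 ± 0.408, 18.1 ± 0.333 and 6.89 ± 0.107 (SD, n = 3). A ratio of FPKM of genes in 1 library does not depend on library scaling, so the order of the groups in it holds on either scale.

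Lta4h (NCBI Gene 16993), at chr10:93453396-93484896, encodes the enzyme that makes leukotriene B4. It had 202, 208 and 206 CPM in Ly6Ghi and 75.4, 72.9 and 71.0 CPM in Ly6Glow. In NL it had 48.4, 46.5 and 44.8 CPM. Ly6Ghi stood alone at the top for Lta4h, and the other groups did not overlap either. Means were 205 ± 3.10 CPM in Ly6Ghi, 73.1 ± 2.17 CPM in Ly6Glow and 46.6 ± 1.77 CPM in NL (SD, n = 3 each). Lta4h was 4.41-fold higher in Ly6Ghi than in NL (log2 fold change 2.14, edgeR adjusted p = 1.8e-21, SE 0.0410). It was 2.81-fold lower in Ly6Glow than in Ly6Ghi (log2 fold change -1.49, edgeR adjusted p = 1.24e-17, SE 0.0413). Both differences of Lta4h were called on FPKM as well.

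The change of Lta4h in Ly6Glow over NL was small and depended on the scale. Its log2 fold change was 0.65 (edgeR adjusted p = 1.12e-11, SE 0.0455), or 1.57-fold. With only genes of at least 10 counts in every library the value was 0.47, under the threshold, and on log2(FPKM + 1) it was -0.05 (limma adjusted p = 0.271, with 3.31e-41 to 0.307 over all alternatives). In FPKM, Lta4h stood at 29.3 ± 0.870 in Ly6Glow and 30.4 ± 0.928 in NL (SD, n = 3), with overlapping libraries. Less the median of the neutrophil markers, Lta4h was at 0.34 in Ly6Ghi over NL and at -1.15 in Ly6Glow over NL. The granule protein genes Camp, Ltf and Ngp, singled out after their values were seen, were, like Lta4h, higher in Ly6Ghi than in both other groups. Of the 12 neutrophil markers, 4 went the other way and were called higher in Ly6Glow than in Ly6Ghi (Csf3r, Cxcr2, Mmp8 and Retnlg), and 5 were not called. Camp was at 159 CPM in Ly6Glow and 188 CPM in NL, a step down where Lta4h stepped up in CPM. The relation of these genes to Lta4h was not tested.

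Ltc4s (NCBI Gene 17001), a small gene at chr11:50236461-50238532, encodes the enzyme at the entry to the cysteinyl leukotrienes. It was weakly expressed, with 3.38, 3.13 and 3.28 CPM in Ly6Ghi and 0.893, 1.05 and 0.839 CPM in Ly6Glow. In NL it had 9.43, 8.49 and 10.0 CPM. The groups did not overlap in Ltc4s, and their order in CPM, NL above Ly6Ghi above Ly6Glow, was unlike that of any other member. In mean FPKM Cysltr2 had the same order (1.06, 0.433 and 0.427), with Ly6Ghi and Ly6Glow overlapping. Mean levels were 9.31 ± 0.766 CPM in NL, 3.26 ± 0.128 CPM in Ly6Ghi and 0.929 ± 0.112 CPM in Ly6Glow (SD, n = 3 each), the last from 10.99 to 14 estimated counts per library. Ltc4s was 2.85-fold lower in Ly6Ghi than in NL (log2 fold change -1.51, edgeR adjusted p = 1.28e-10, SE 0.121). In Ly6Glow it was 9.94-fold lower than in NL (log2 fold change -3.31, edgeR adjusted p = 4.15e-14, SE 0.170), with -3.25 on log2(FPKM + 1) and -3.92 on log2(FPKM + 0.1). It was also 3.49-fold lower in Ly6Glow than in Ly6Ghi (log2 fold change -1.80, edgeR adjusted p = 2.36e-07, SE 0.213).

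The sum of alveolar macrophage markers had the same order of groups as Ltc4s, although Chil3 did not. Of 12 such markers 11 were called lower in Ly6Ghi than in NL, 12 lower in Ly6Glow than in NL and 10 lower in Ly6Glow than in Ly6Ghi, where 1 of those lower over NL (Slc39a2) passed the filter only with NL. Krt79, Cidec, Fabp1 and Marco reached the filter in 0 Ly6Glow libraries and passed through NL and Ly6Ghi, so their calls as lower in Ly6Glow are no test. Markers of mast cells and basophils (most abundant gene Kit), cells known for leukotriene C4, summed to 85.7 ± 1.10 CPM in NL, 145 ± 0.858 CPM in Ly6Ghi and 250 ± 1.61 CPM in Ly6Glow. Kit alone, at 58.3 ± 0.725, 104 ± 0.260 and 225 ± 2.69 CPM, carried the order of these sums. Of 6 such markers tested, 5 were higher and 1 lower in Ly6Ghi than in NL, 4 higher and 1 lower in Ly6Glow than in NL, and 4 lower and 1 (Kit) higher in Ly6Glow than in Ly6Ghi. Of those higher over NL, Prss34 reached the filter in 0 NL libraries and passed through Ly6Ghi and Ly6Glow, where it was high, so its calls over NL are no test. The part of these cells in the Ltc4s values was not tested.

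The mRNAs of Lta4h and Ltc4s, whose enzymes compete for leukotriene A4, were compared by the ratio of Lta4h FPKM to Ltc4s FPKM. It was 17.4, 19.7 and 19.1 in the Ly6Ghi libraries and 25.6, 21.1 and 23.2 in the Ly6Glow libraries. The NL libraries had ratios of 1.54, 1.61 and 1.31, so that in these libraries both mRNAs were at similar levels per length. Means were 18.7 ± 1.17 in Ly6Ghi, 23.3 ± 2.25 in Ly6Glow and 1.49 ± 0.160 in NL (SD, n = 3), with no overlap between groups. On the log2 scale the Lta4h to Ltc4s ratio was higher by 3.66 in Ly6Ghi and by 3.97 in Ly6Glow than in NL, and by 0.31 in Ly6Glow than in Ly6Ghi. The exact two-sided permutation p was 0.1 in each comparison, the smallest that 3 libraries against 3 can give. The ratio leaves out Mgst2, which can also form leukotriene C4 and was at 5.24, 20.7 and 13.0 CPM in NL, Ly6Ghi and Ly6Glow. The part of other cell types in the ratio was not tested.

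**Figure D3:**
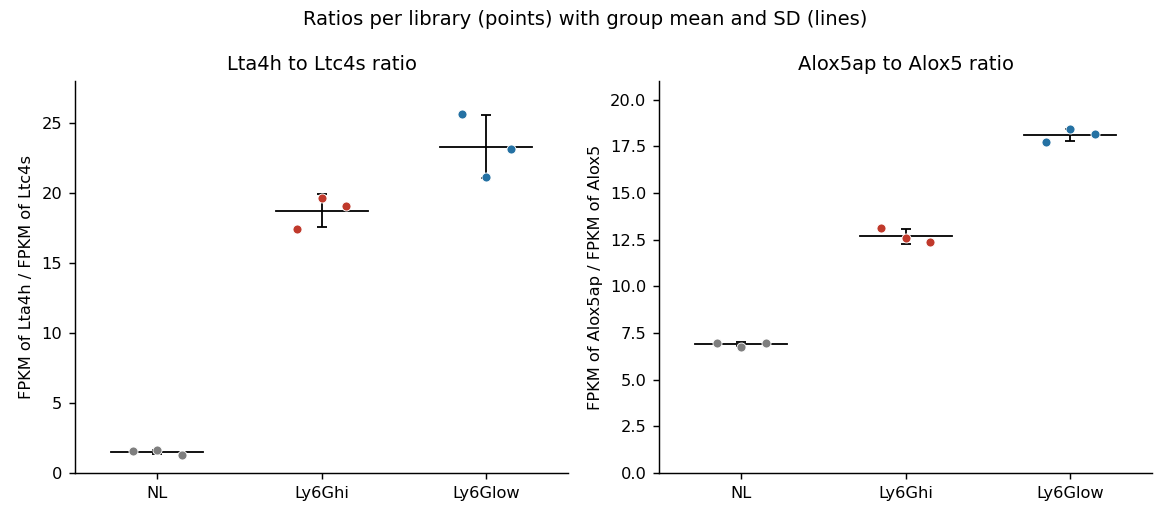
Ratio of Lta4h to Ltc4s (left) and of Alox5ap to Alox5 (right), each from FPKM of the same library, with 1 point per library, the group mean as a line and the SD as a bar (n = 3). The left ratio lay between 1.31 and 1.61 in NL and between 17.4 and 25.6 in the macrometastatic libraries.

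Alox15 (NCBI Gene 11687), on the minus strand of chromosome 11, was the member that differed most between the macrometastatic groups. It had 54.7, 54.7 and 54.0 CPM in Ly6Ghi and 6.09, 6.10 and 6.02 CPM in Ly6Glow. In NL it had 19.0, 16.5 and 18.7 CPM. Ly6Ghi was highest and Ly6Glow lowest for Alox15, with NL between them and no overlap. Group means were 54.5 ± 0.420 CPM in Ly6Ghi, 6.07 ± 0.0413 CPM in Ly6Glow and 18.1 ± 1.38 CPM in NL (SD, n = 3 each). Alox15 was 8.96-fold lower in Ly6Glow than in Ly6Ghi (log2 fold change -3.16, edgeR adjusted p = 2.26e-18, SE 0.0792). It was 3.01-fold higher in Ly6Ghi than in NL (log2 fold change 1.59, edgeR adjusted p = 1.03e-16, SE 0.0578). In Ly6Glow it was 2.97-fold lower than in NL (log2 fold change -1.57, edgeR adjusted p = 3.77e-13, SE 0.0909). Less the median of the neutrophil markers, the change of Alox15 in Ly6Ghi over NL turned to -0.20 and that in Ly6Glow over NL was -3.37.

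The deposited estimated counts and FPKM of Alox15 did not keep a fixed relation. A gene's estimated count divided by its FPKM and the library total gives the transcript length assumed for it. For Alox15 this implied length was 2482, 2499 and 2517 bases in Ly6Ghi, 2657, 2795 and 2796 bases in NL, and 3269, 5441 and 4436 bases in Ly6Glow. The means were 2499.5 ± 17.3, 2749 ± 80.0 and 4382 ± 1087 bases (SD, n = 3), with no overlap between groups. Alox5, by contrast, stood at 2778 bases in every library, Lta4h between 1993 and 2015 bases and Cysltr1 between 2887 and 2939 bases. Weakly expressed members varied too, Cysltr2 from 1777 to 2132 bases and Ltc4s from 549 to 613 bases, with groups that overlapped. RefSeq places Alox15 at chr11:70344147-70390538, a span of 46392 bases with 2 transcripts, whereas GENCODE M21 gives it 7880 bases and 1 coding transcript. How reads were shared between Alox15 transcripts is not given in the sources used here, and their part in the differing lengths was not tested.

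The differences of Alox15 between Ly6Glow and the other groups were also read on FPKM. Mean Alox15 FPKM was 20.7 ± 0.252 in Ly6Ghi, 8.60 ± 0.748 in NL and 1.16 ± 0.307 in Ly6Glow (SD, n = 3). The log2 fold change in Ly6Glow over Ly6Ghi was -3.33 on log2(FPKM + 1) and -4.07 on log2(FPKM + 0.1), beside -3.16 on counts. In Ly6Glow over NL it was -2.16 and -2.81 on these scales, beside -1.57 on counts. In Ly6Glow over Ly6Ghi Alox5, with a steady implied length, had -0.48 and -0.49 beside -0.25, and Lta4h had -1.69 and -1.72 beside -1.49. The direction of Alox15 in each comparison was the same on both.

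**Figure D4:**
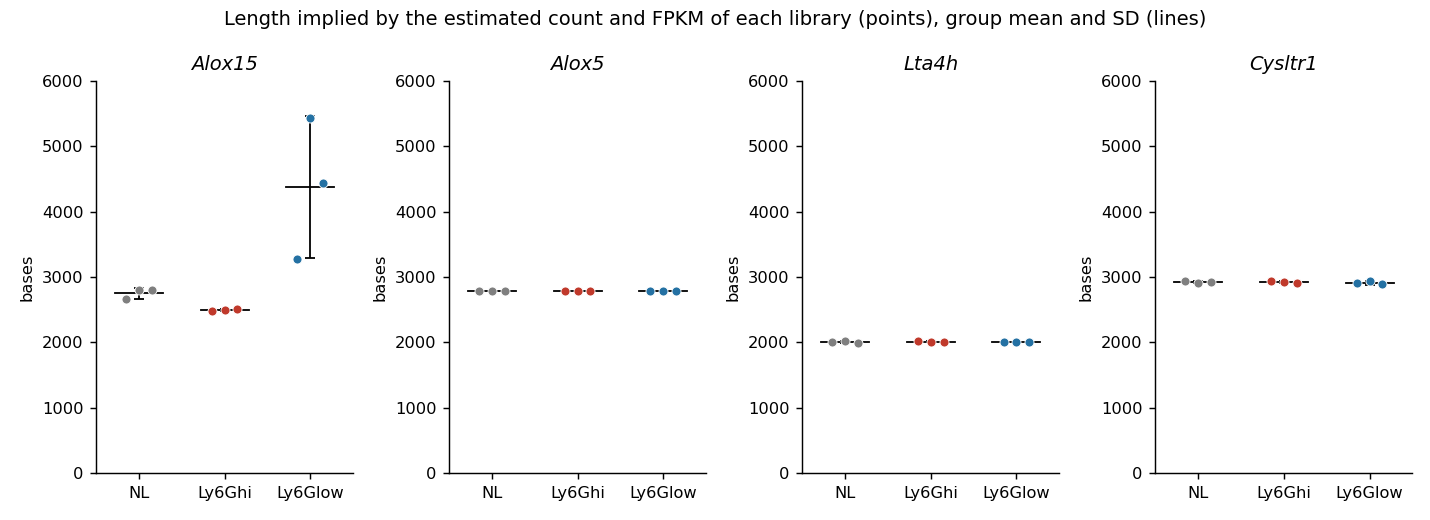
Transcript length in bases implied by the deposited estimated count, FPKM and library total for Alox15, Alox5, Lta4h and Cysltr1, with 1 point per library, the group mean as a line and the SD as a bar (n = 3). Alox15 rose to between 3269 and 5441 bases in Ly6Glow, while Alox5 stayed at 2778 bases.

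Eosinophil markers moved in part with Alox15. The 8 markers (most abundant gene Ear2) summed to 232 ± 8.49 CPM in Ly6Ghi, 42.7 ± 0.511 CPM in Ly6Glow and 194 ± 2.73 CPM in NL (SD, n = 3 each). Of the 8, 5 were called higher and 1 lower in Ly6Ghi than in NL, 3 higher and 2 lower in Ly6Glow than in NL, and 7 lower in Ly6Glow than in Ly6Ghi. Prg2, Epx and Ear6 passed the filter only with Ly6Ghi, where they were high, so 3 of the 5 calls over NL and 3 of the 7 against Ly6Glow are no test, and Epx in Ly6Glow over NL compares 0.128 with 0.0152 CPM. Prg2, the eosinophil granule major basic protein, and Ear6 were singled out after their values were seen and stood at 29.4 ± 1.19 and 31.9 ± 1.66 CPM in Ly6Ghi against 0.619 ± 0.451 and 0.411 ± 0.0749 CPM in Ly6Glow and 0.226 ± 0.0468 and 0.287 ± 0.0536 CPM in NL. Ear1 and Ear2, singled out in the same way, were at 40.7 ± 2.21 and 111 ± 2.23 CPM in NL against 1.19 ± 0.184 and 4.44 ± 0.300 CPM in Ly6Glow, the 2 markers called lower there, and at 45.8 ± 0.366 and 71.1 ± 4.63 CPM in Ly6Ghi, where Ear2 was the marker called lower than in NL. In Ly6Glow over NL, where Alox15 fell, the median log2 fold change of the 8 markers was 0.50. The part of eosinophils and of alveolar macrophages in the Alox15 values was not tested.

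Alox12 (NCBI Gene 11684), at chr11:70241457-70255380 on the same chromosome as Alox15, was near the limit of detection. It had 0.492, 0.177 and 0.371 CPM in Ly6Ghi, from 3.22 to 7.52 estimated counts. The Ly6Glow libraries had 0.975, 0.677 and 1.14 CPM, and the NL libraries 1.98, 1.73 and 1.76 CPM. The groups of Alox12 did not overlap, and NL was highest. It reached the filter's 0.589 CPM in 3 NL, 2 Ly6Glow and 0 Ly6Ghi libraries, and so passed only with NL, where it was high, which makes its values against NL a description and no test. Means were 0.347 ± 0.159 CPM in Ly6Ghi, 0.932 ± 0.236 CPM in Ly6Glow and 1.82 ± 0.134 CPM in NL (SD, n = 3 each). Alox12 was 5.20-fold lower in Ly6Ghi than in NL (log2 fold change -2.38, SE 0.318). In Ly6Glow it was 1.95-fold lower than in NL (log2 fold change -0.97, SE 0.272). Against Ly6Ghi it was 2.66-fold higher in Ly6Glow (log2 fold change 1.41, edgeR adjusted p = 0.00476, SE 0.400), but with only the 6 libraries of this comparison Alox12 did not pass the filter and was not tested.

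On log2(FPKM + 1), which compresses such low values, Alox12 fell under the fold-change threshold in Ly6Glow over Ly6Ghi (0.18) and in Ly6Glow over NL (-0.52), and it was at -0.70 in Ly6Ghi over NL. Platelet markers (most abundant gene Itga2b) summed to 19.8 ± 0.574 CPM in NL, 14.1 ± 0.517 CPM in Ly6Ghi and 16.0 ± 0.677 CPM in Ly6Glow (SD, n = 3 each), and Itga2b itself was at 6.30 ± 0.493, 6.08 ± 0.759 and 6.86 ± 0.522 CPM. Of 6 platelet markers tested 3 were lower and 1 higher in Ly6Ghi than in NL, 3 lower and 1 higher in Ly6Glow than in NL, and 1 lower and 2 higher in Ly6Glow than in Ly6Ghi. Of the markers lower over NL, 2 (Pf4 and Ppbp) passed the filter only with NL, where they were high, and are no test. The part of platelets in the Alox12 values was not tested.

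**Figure D5:**
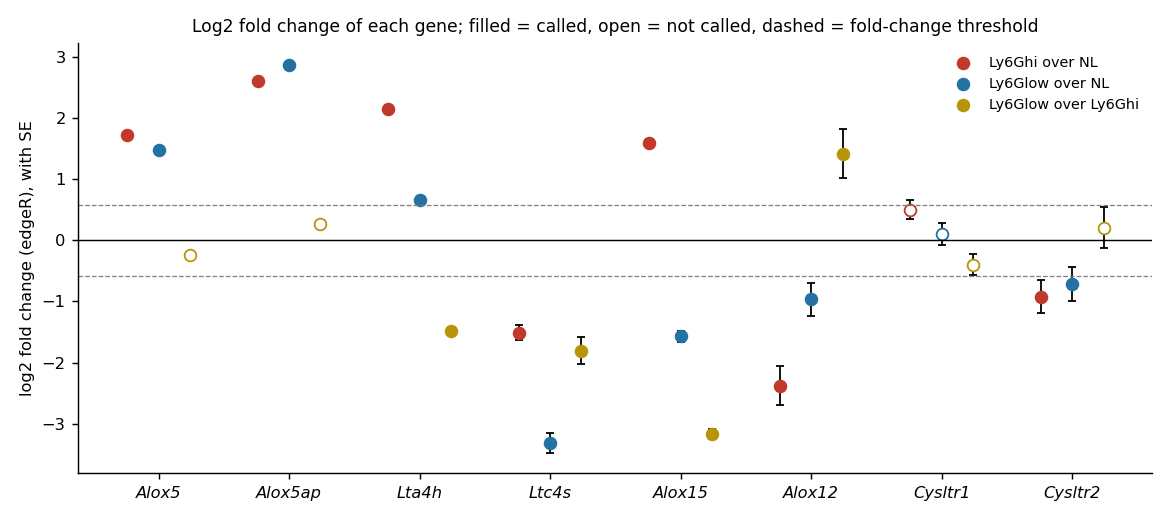
Log2 fold change of the 8 genes in the 3 comparisons from edgeR, with bars of 1 SE (smaller than the symbol for the abundant genes). Filled symbols were called and open ones were not, dashed lines mark a log2 fold change of 0.58, and Lta4h in Ly6Glow over NL, at 0.65 here, turned to -0.05 on log2(FPKM + 1).

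The receptors of the cysteinyl leukotrienes were weakly expressed. Cysltr1 (NCBI Gene 58861), at chrX:106576509-106603679, had 3.63, 4.43 and 3.16 CPM in Ly6Ghi and 2.84, 2.71 and 2.97 CPM in Ly6Glow. In NL it had 2.83, 2.56 and 2.57 CPM. Ly6Ghi lay above both other groups in Cysltr1, which overlapped each other. Means were 3.74 ± 0.642, 2.84 ± 0.132 and 2.65 ± 0.155 CPM (SD, n = 3) in Ly6Ghi, Ly6Glow and NL. Cysltr1 was called in no comparison. Its log2 fold change was 0.50 in Ly6Ghi over NL (edgeR adjusted p = 0.00588, SE 0.156), which passed the p threshold but not that on fold change, and 0.61 without Ly6Ghi replicate 3 (edgeR adjusted p = 0.00217), which passed both (0.00217 to 0.878 over all alternatives). In Ly6Glow over Ly6Ghi it was -0.40 (edgeR adjusted p = 0.0556, SE 0.172). In Ly6Glow over NL it was 0.10 (edgeR adjusted p = 0.597, SE 0.175) and turned to -0.29 on log2(FPKM + 1). Less the median of the neutrophil markers, Cysltr1 was at -1.30 in Ly6Ghi over NL, a turn in direction, and at -1.70 in Ly6Glow over NL. The gene Gm5127 overlaps Cysltr1 in position and was at most at 0.301 CPM on average in a group (NL). Whether the counting used strand is not given in the sources used here.

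Cysltr2 (NCBI Gene 70086), at chr14:73025672-73049114, had 0.677, 0.590 and 1.36 CPM in Ly6Ghi and 0.975, 1.13 and 0.915 CPM in Ly6Glow. In NL it had 1.62, 1.83 and 1.53 CPM. NL was above every macrometastatic library in Cysltr2, and Ly6Ghi and Ly6Glow overlapped. Means were 0.876 ± 0.423, 1.01 ± 0.110 and 1.66 ± 0.151 CPM (SD, n = 3) in Ly6Ghi, Ly6Glow and NL. Cysltr2 was 1.89-fold lower in Ly6Ghi than in NL (log2 fold change -0.92, edgeR adjusted p = 0.00397, SE 0.274). In Ly6Glow it was 1.64-fold lower than in NL (log2 fold change -0.71, edgeR adjusted p = 0.0238, SE 0.284). Between Ly6Glow and Ly6Ghi its log2 fold change was 0.21 (edgeR adjusted p = 0.632, SE 0.337), within the spread of the replicates, and it turned to -0.015 without Ly6Ghi replicate 2.

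The call of Cysltr2 in Ly6Glow over NL depended on single libraries and on the tool. It was lost with DESeq2 (log2 fold change -0.63, adjusted p = 0.119), without Ly6Glow replicate 1 (edgeR adjusted p = 0.0617), without Ly6Glow replicate 3 (edgeR adjusted p = 0.0788) and without NL replicate 2 (edgeR adjusted p = 0.0649). Over all alternatives its adjusted p from edgeR, DESeq2 or limma ran from 0.00032 to 0.119, and on log2(FPKM + 1) the call was lost on fold change, at -0.53 here and in Ly6Ghi over NL. In Ly6Ghi over NL the Cysltr2 value ran from -1.37 to -0.70 as single libraries were left out. Endothelial cells are known to carry this receptor. The endothelial markers, at 1007 CPM in NL, 144 CPM in Ly6Ghi and 179 CPM in Ly6Glow, were like Cysltr2 highest in NL, but with a larger step. Most other marker lists of cells other than neutrophils were highest in NL as well. The part of any of these cells in the Cysltr2 values was not tested.

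The order of the members was read from FPKM. In Ly6Ghi it was Alox5ap (1784 ± 35.4 FPKM), Alox5 (141 ± 2.80), Lta4h (96.8 ± 1.87), Alox15 (20.7 ± 0.252), Ltc4s (5.18 ± 0.231), Cysltr1 (1.21 ± 0.208), Cysltr2 (0.433 ± 0.189) and Alox12 (0.107 ± 0.0451), and no neighbours in this order overlapped. In Ly6Glow the mean FPKM was 1817 ± 47.4 for Alox5ap, 100.4 ± 3.07 for Alox5, 29.3 ± 0.870 for Lta4h, 1.26 ± 0.104 for Ltc4s and 1.16 ± 0.307 for Alox15, and the last 2 overlapped. Cysltr1, Cysltr2 and Alox12 followed in Ly6Glow at 0.787 ± 0.0451, 0.427 ± 0.0737 and 0.250 ± 0.0624 FPKM. In NL the order was Alox5ap (405 ± 23.1 FPKM), Alox5 (58.7 ± 2.46), Lta4h (30.4 ± 0.928), Ltc4s (20.6 ± 1.78), Alox15 (8.60 ± 0.748), Cysltr1 (1.19 ± 0.0551), Cysltr2 (1.06 ± 0.142) and Alox12 (0.797 ± 0.0551), where Cysltr1 and Cysltr2 overlapped. All are means ± SD of 3 libraries. Ltc4s thus ranked above Alox15 per length in NL and below it in Ly6Ghi.

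The wider leukotriene pathway was described from 5 lists of 40 genes, of which 39 had values and 31 were tested. In Ly6Ghi over NL 13 pathway genes were called higher and 9 lower (median log2 fold change 0.26), in Ly6Glow over NL 14 higher and 8 lower (median 0.38), and in Ly6Glow over Ly6Ghi 4 higher and 6 lower (median 0.09). These counts stand beside 62.9%, 69.5% and 25.2% of all tested genes called in the same comparisons and set nothing apart about the pathway. In each NL comparison 1 of the genes called higher and 2 of those called lower passed the filter only with the groups where they were high. On log2(FPKM + 1) Ly6Glow over Ly6Ghi gave 6 calls in place of 10, where 15.9% of all tested genes were called in place of 25.2%. The pathway medians are on the TMM scale and were not read on FPKM, so their sign may depend on scaling. On log2(FPKM + 1) the median of all tested genes in Ly6Glow over NL moved from -0.16 to -0.49.

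Upstream of Alox5, Pla2g4a, the cytosolic phospholipase that releases arachidonic acid, was at 20.5 ± 0.805 CPM in Ly6Ghi, 9.67 ± 1.22 CPM in Ly6Glow and 15.7 ± 0.772 CPM in NL (SD, n = 3). Its log2 fold change in Ly6Glow over Ly6Ghi was -1.08 (edgeR adjusted p = 1.03e-09, SE 0.0901), in the direction of Lta4h and Alox15. Mboat7, which returns arachidonic acid to phosphatidylinositol, rose from 122 ± 5.44 CPM in NL to 346 ± 4.77 CPM in Ly6Ghi and 423 ± 10.6 CPM in Ly6Glow. Cotl1, a protein that binds 5-lipoxygenase, was at 456 ± 37.4, 975 ± 17.8 and 1041 ± 43.2 CPM in NL, Ly6Ghi and Ly6Glow, a smaller step than that of Alox5. Mapkapk2, a kinase that phosphorylates 5-lipoxygenase, was higher in Ly6Glow than in Ly6Ghi, with a log2 fold change of 0.58 (edgeR adjusted p = 5.17e-12, SE 0.0353) just past the threshold. Of 9 tested genes in this list of supply and partner genes, 3 were higher and 2 lower in Ly6Ghi over NL, 3 higher and 2 lower in Ly6Glow over NL, and 2 higher and 1 lower in Ly6Glow over Ly6Ghi. Of the other lipoxygenases, Alox8 and Aloxe3 were tested and were at most at 1.20 CPM on average in a group, with 1 called higher in Ly6Ghi over NL (Aloxe3), both called higher in Ly6Glow over NL and neither called in Ly6Glow over Ly6Ghi. Aloxe3 passed the filter only with Ly6Ghi and Ly6Glow, where it was high, so its calls against NL are no test.

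Downstream of Ltc4s, gamma-glutamyl transferases that trim leukotriene C4 rose over NL where Ltc4s fell. Ggt1, a gamma-glutamyl transferase, was at 21.1, 17.7 and 19.7 CPM in NL, 327, 335 and 325 CPM in Ly6Ghi and 375, 375 and 364 CPM in Ly6Glow. Its log2 fold change was 4.08 in Ly6Ghi over NL (edgeR adjusted p = 1.44e-24, SE 0.0482) and 4.25 in Ly6Glow over NL (edgeR adjusted p = 5.43e-25, SE 0.0484). Ggt5, the relative that cleaves leukotriene C4, was at 27.8 ± 1.80, 98.6 ± 1.85 and 144 ± 8.51 CPM in NL, Ly6Ghi and Ly6Glow (SD, n = 3). The dipeptidase Dpep1 went with Ltc4s instead, from 23.5 ± 1.63 CPM in NL to 4.45 ± 0.414 CPM in Ly6Ghi and 4.21 ± 0.337 CPM in Ly6Glow, and Dpep2 was higher in Ly6Glow than in Ly6Ghi (log2 fold change 0.70, edgeR adjusted p = 1.92e-07, SE 0.0820). Mgst2, a microsomal transferase that can also form leukotriene C4, was at 5.24 ± 0.193 CPM in NL, 20.7 ± 0.508 CPM in Ly6Ghi and 13.0 ± 1.12 CPM in Ly6Glow, opposite to Ltc4s in the NL comparisons. Of 10 genes tested in the list, 5 were higher and 3 lower in Ly6Ghi over NL, 6 higher and 3 lower in Ly6Glow over NL, and 1 higher and 2 lower in Ly6Glow over Ly6Ghi.

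Beyond Lta4h, leukotriene B4 acts on the receptor encoded by Ltb4r1. This gene was at 46.6, 41.1 and 44.4 CPM in NL, 270.2, 277 and 272 CPM in Ly6Ghi and 259, 255 and 233 CPM in Ly6Glow. Ltb4r1 rose by a log2 fold change of 2.63 in Ly6Ghi over NL (edgeR adjusted p = 7.78e-22, SE 0.0477) and of 2.50 in Ly6Glow over NL (edgeR adjusted p = 1.72e-21, SE 0.0483). Between Ly6Glow and Ly6Ghi it had a log2 fold change of -0.13 (edgeR adjusted p = 0.0105, SE 0.0423), under the fold-change threshold, where Lta4h fell. Of the 3 receptors tested in this list, 2 were higher and 1 (Gpr31b) lower over NL in both macrometastatic groups, but Gpr31b passed the filter only through NL, where it was high, so its calls against NL are no test. Gpr31b, a receptor of 12-HETE, had 1.03, 1.51 and 1.22 CPM in NL, at most 0.123 CPM in Ly6Ghi and 0 in Ly6Glow, and its call as lower in Ly6Glow than in Ly6Ghi rests on so few counts that no fold is given.

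Leukotriene B4 is inactivated in mouse neutrophils by Cyp4f18, an omega-oxidizing cytochrome. Cyp4f18 was at 826, 776 and 816 CPM in NL, 279, 279 and 287 CPM in Ly6Ghi and 693, 708 and 687 CPM in Ly6Glow. It was lowest in Ly6Ghi, where Lta4h was highest, with a log2 fold change of -1.52 in Ly6Ghi over NL (edgeR adjusted p = 1.23e-20, SE 0.0327) and of 1.30 in Ly6Glow over Ly6Ghi (edgeR adjusted p = 2.59e-18, SE 0.0330). Ptgr1, a reductase that also oxidizes leukotriene B4, was like Lta4h highest in Ly6Ghi, at 6.40 ± 0.521 CPM in NL, 16.6 ± 0.615 CPM in Ly6Ghi and 5.07 ± 0.673 CPM in Ly6Glow, but in Ly6Glow over NL its log2 fold change was -0.33 (edgeR adjusted p = 0.0159), where that of Lta4h was 0.65. Hpgd, a dehydrogenase of prostaglandins and hydroxy acids, was at 48.8 ± 5.89 CPM in NL against 8.26 ± 0.698 CPM in Ly6Ghi and 8.75 ± 1.39 CPM in Ly6Glow. Of 7 tested genes of leukotriene inactivation, 2 were higher and 3 lower in Ly6Ghi over NL, 1 higher and 2 lower in Ly6Glow over NL, and 1 higher and 2 lower in Ly6Glow over Ly6Ghi. Of those lower over NL in each case, 1 (Ephx2, an epoxide hydrolase) passed the filter only with NL, where it was high, and its calls are no test.

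Genes with the most similar course over the 9 libraries were found by the root mean square difference of centred log2 CPM, among tested genes with a mean of at least 5 CPM. The nearest to Alox5 were Unc119 (0.0351) and Rcsd1, and those nearest to Alox5ap were Narf (0.0771), Gpr84 and Sertad3. Lta4h was followed by Sept5 (0.0825), Aurka and Hmgn2. Alox15 had Tacc3 (0.157), Top2a and Bub1 as its nearest genes, and Ltc4s had Ddx1 (0.181), Bcl2a1d and Shtn1. The nearest genes of the weakly expressed Alox12 were 6330409D20Rik (0.264), Perm1 and Iqcn, and those of Cysltr2 were 9930111J21Rik2 (0.178), Itgae and Epsti1.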

How the data were processed

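Poly(A) RNA of 9 sorted neutrophil libraries was sequenced as stranded 150 bp paired-end reads. The authors deposited an estimated count and an FPKM value for each gene; the aligner and counting tool are not given in the sources used here. Of 22064 genes listed, 3739 had no value and 18325 had values. Whole values made up 39.5% of the estimated counts, and each value was rounded before fitting.

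Counts were scaled by TMM in edgeR 4.0.16 (factors 0.803 to 1.32) and filtered with filterByExpr by group (0.589 CPM in the smallest group), which left 14108 genes. The quasi-likelihood fit on all 9 libraries (common biological coefficient of variation 0.0346) gave 3 comparisons, with Benjamini-Hochberg adjustment over all tested genes. Standard errors are the absolute log2 fold change over the square root of F. Ratios were compared with an exact two-sided permutation test. The procedure was tested on simulated data, but no outcome of that test is given here and no value rests on it.

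Members and lists were chosen with earlier results of these data known. Named genes were all members, in each pathway list and comparison up to 3 called genes with the largest change at 5 CPM or more, any leukotriene list gene whose role is described, the most abundant gene of each marker list and up to 3 nearest patterns of each called member; markers named beyond this were chosen after their values were seen. Of the genes this rule picks, those not named lie within the list counts.

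Alternatives were DESeq2 1.42.0 and its size factors, limma 3.58.1 on log2(FPKM + 1) and log2(FPKM + 0.1), other filters and thresholds, unadjusted p, only the 6 libraries of a comparison, a replicate block and leaving out each library. R 4.3.3, Python 3.11.15, pandas 2.3.3, numpy 2.4.6, scipy 1.17.1 and matplotlib 3.10.9 were used. Positions and promoters are from RefSeq GRCm38.p6, and gene spans were compared with GENCODE M21.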

Additional observations from a re-analysis of the deposited data

How the results depend on the processing

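Of 422 alternative fits of single members, 404 kept direction and call, 9 lost the call on adjusted p or fold change, 1 gained it and 8 turned direction. Lta4h in Ly6Glow over NL turned to -0.051 on log2(FPKM + 1), -0.053 on log2(FPKM + 0.1) and -0.051 with a filter on FPKM, and Cysltr1 to -0.29, -0.54 and -0.29, and to -0.083 with at least 10 counts in every library. FPKM leave out the TMM factors, which were 0.803 to 0.807 in Ly6Glow and 1.30 to 1.32 in NL. The implied length of Lta4h stayed between 1993 and 2015 bases. Cysltr2 in Ly6Glow over Ly6Ghi turned to -0.015 without Ly6Ghi replicate 2 (range without single libraries -0.015 to 0.66). Alox12 had no value under the filter of 10 counts nor, in Ly6Glow over Ly6Ghi, with only the 6 libraries of the comparison. In that 6-library fit 3 members were called in place of 4, where 27.4% of all tested genes were called in place of 25.2%. Alox12 and Cysltr2 had no value with the filter on FPKM. Less the median of the 12 neutrophil markers, a scale chosen after seeing the data, Alox5 (-0.073) and Alox15 (-0.20) turned in Ly6Ghi over NL, and Alox5 (-0.32) and Lta4h (-1.15) in Ly6Glow over NL, as did Cysltr1, which was not called, in both (-1.30 and -1.70). The cause was not tested.

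Members called in Ly6Glow over NL numbered 4 on log2(FPKM + 1), 4 with a filter on FPKM (where 53.6% and 58.9% of all genes were called) and 4 with a threshold of 1, in place of 7. Pathway genes called in Ly6Glow over Ly6Ghi numbered 6 on log2(FPKM + 1), 6 with a filter on FPKM, 19 with no threshold and 5 with a threshold of 1, in place of 10, and in Ly6Glow over NL 13 with a threshold of 1, in place of 22. On log2(FPKM + 1) and with a filter on FPKM, 15.9% and 18.8% of all genes were called in Ly6Glow over Ly6Ghi, in place of 25.2%. Shares of all genes at the other thresholds are not given here. Without single libraries, members called ranged from 4 to 4 in Ly6Glow over Ly6Ghi, from 7 to 8 in Ly6Ghi over NL and from 6 to 7 in Ly6Glow over NL, and pathway genes from 8 to 11, 21 to 23 and 21 to 23. In these fits 23.5% to 25.4%, 62.3% to 63% and 68.4% to 69.5% of all tested genes were called, in the same order. Of all called genes, the share higher moved on log2(FPKM + 1) from 36.8% to 14.2% in Ly6Glow over Ly6Ghi, from 41.8% to 21.8% in Ly6Ghi over NL and from 41.3% to 14.9% in Ly6Glow over NL. FPKM leave out the TMM factors, which were lowest in Ly6Glow and highest in NL. The cause was not tested.

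Whether shared replicate numbers pair libraries is not stated. Residuals of libraries with the same number correlated by r from -0.240 to 0.0898 across 8263 genes, which are not independent replicates. The own number matched best in 4 of 9 pairs. NL came from other mice, so only Ly6Ghi and Ly6Glow could pair, and their r was -0.00974, 0.0169 and 0.0640. Correlations this weak cannot show whether the libraries pair. With a replicate block, members called were 4, 7 and 7 in Ly6Glow over Ly6Ghi, Ly6Ghi over NL and Ly6Glow over NL. In the same order 25%, 62.8% and 69.3% of all tested genes were called with the block.

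No batch is labelled, so an effect of processing cannot be told apart from the groups. Alox12, Cysltr2 and, in Ly6Glow, Ltc4s rest on low counts, which limits their precision.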

Other observations

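The cyclooxygenase branch, which turns arachidonic acid into prostaglandins and thromboxane, was described from 8 tested genes, of which 2 were called higher and 5 lower in Ly6Ghi over NL, 2 higher and 4 lower in Ly6Glow over NL, and 1 higher and 0 lower in Ly6Glow over Ly6Ghi, where 62.9%, 69.5% and 25.2% of all tested genes were called. Ptgs2, the inducible cyclooxygenase, was at 819 ± 48.8 CPM in NL, 270.1 ± 4.35 CPM in Ly6Ghi and 658 ± 26.5 CPM in Ly6Glow (SD, n = 3 each). Its log2 fold change was -1.60 in Ly6Ghi over NL (edgeR adjusted p = 1.71e-19) and 1.28 in Ly6Glow over Ly6Ghi (edgeR adjusted p = 1.08e-16). Ptgis, the prostacyclin synthase, fell from 20.5 ± 1.06 CPM in NL to 2.92 ± 0.304 CPM in Ly6Ghi and 3.05 ± 0.0402 CPM in Ly6Glow. Hpgds, the hematopoietic prostaglandin D synthase, was at 5.88 ± 0.717 CPM in NL, 1.22 ± 0.306 CPM in Ly6Ghi and 0.781 ± 0.240 CPM in Ly6Glow.

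Receptors of lipoxins and resolvins were described from 4 tested genes, of which 1 was called higher and 2 lower in Ly6Ghi over NL, 1 higher and 3 lower in Ly6Glow over NL, and 0 in either direction in Ly6Glow over Ly6Ghi, beside the same shares of all tested genes. Of those lower, Lgr6 passed the filter only with NL, where it was high, and is no test. Fpr2, a formyl peptide receptor that also binds lipoxin A4, rose from 268 ± 2.40 CPM in NL to 814 ± 16.4 CPM in Ly6Ghi and 931 ± 3.16 CPM in Ly6Glow. Cmklr1, the chemerin receptor, was at 33.2 ± 2.49 CPM in NL, 9.53 ± 0.560 CPM in Ly6Ghi and 9.52 ± 0.483 CPM in Ly6Glow.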
